A study of Sus scrofa with 5 samples.

Results

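Nociceptors are the sensory neurons that report harmful heat, pressure and chemicals, and part of them carry PIEZO2, a cation channel opened by stretch of the membrane. In pig dorsal root ganglia, nuclei of such PIEZO2-high nociceptors were chosen by measured values, the counts of unique molecular identifiers (UMIs) of 4 genes and of all genes together, each UMI standing for 1 captured RNA molecule. A nucleus belonged to the PIEZO2-high nuclei when it held at least 3 UMIs of PIEZO2 and at least 1 UMI of SCN10A, no UMI of GFRA2 or LPAR3, and a total of 3000 to 50000 UMIs. By this rule 133 of 2189 nuclei were PIEZO2-high. They were set against 373 PIEZO2-zero nuclei, chosen in the same way but with no PIEZO2 UMI. Another 140 nuclei with 1 or 2 PIEZO2 UMIs lay between them, so that 646 nuclei carried SCN10A outside the GFRA2 class.

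PIEZO2 is the main mechanical sensor of touch and muscle afferents in mouse and human, and nociceptors that carry it are known for responses to punctate pressure. SCN10A encodes a voltage-gated sodium channel that is found mainly in nociceptors. GFRA2, a co-receptor for the growth factor neurturin, and LPAR3, a receptor for lysophosphatidic acid, are known in other mammals from non-peptidergic nociceptors and C-fibre touch neurons, which is why nuclei with either transcript were kept apart as the GFRA2 class. On the pig genome build Sscrofa11.1, PIEZO2 lies on chromosome 6 (97644115 to 97945693) and SCN10A on chromosome 13 (23481537 to 23570454).

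The ganglia were thoracic and lumbar and came from 5 male Landrace pigs, a single untreated group whose age the sources used here do not give. Each sample used 80 mg of tissue. Lysis used either of 2 detergents, and neuronal nuclei were separated on a density gradient or enriched through the neuronal protein NeuN by magnetic beads or flow sorting. The deposited table pooled the nuclei under 6 barcode endings, and nothing in it tied an ending to a pig or a protocol, so the table was 1 sample without replicates. No test was run, all 95% intervals cover counting error only, and values within barcode endings are given beside pooled ones where a result turns on them. The 6 endings shared 0 barcodes.

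Depth and the RNA of mitochondria differed between the sides before any gene was compared. The median total was 8992 UMIs in PIEZO2-high nuclei and 6406 UMIs in PIEZO2-zero nuclei, and the summed totals were 1676741 UMIs in PIEZO2-high and 2949752 UMIs in PIEZO2-zero nuclei. Transcripts of the mitochondrial genome made up 4.65% of the summed UMIs of PIEZO2-high nuclei and 13.3% of those of PIEZO2-zero nuclei. Within barcode ending 3 these shares were 27.1% in PIEZO2-high and 28.7% in PIEZO2-zero nuclei, and within ending 1 they were 4.69% in PIEZO2-high and 4.16% in PIEZO2-zero nuclei. Ending 3 supplied 29 of the 133 PIEZO2-high nuclei but 181 of the 373 PIEZO2-zero nuclei.

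PIEZO2-high nuclei made up 20.6% of the 646 SCN10A-positive nuclei outside the GFRA2 class (exact binomial interval 17.5 to 23.9%). The share was 19.1% in ending 1 (29 of 152 nuclei), 11.8% in ending 3 (29 of 246), 26.9% in ending 5 (32 of 119) and 35.0% in ending 6 (41 of 117). The intervals of ending 3 (8.04 to 16.5%) and ending 6 (26.5 to 44.4%) did not overlap. Median totals of all nuclei in these endings were 3971 and 12038 UMIs, and a threshold in UMIs is passed more easily by a deep nucleus, whose part in these shares was not tested. Ending 4 held 2 PIEZO2-high nuclei of 12, and ending 2 held no nucleus in the total range.

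**Figure D1:**
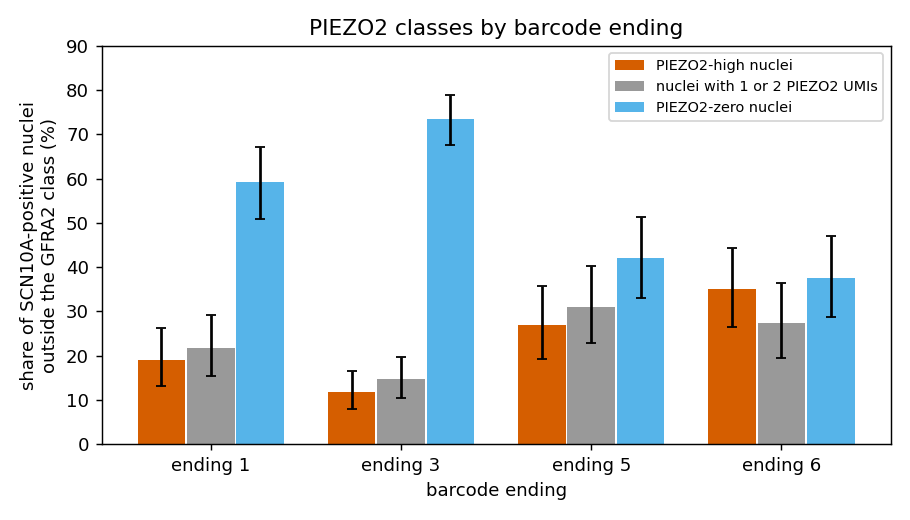
Share of SCN10A-positive nuclei outside the GFRA2 class (percent, vertical axis) that were PIEZO2-high, had 1 or 2 PIEZO2 UMIs, or were PIEZO2-zero, in barcode endings 1, 3, 5 and 6 (horizontal axis), with exact 95% binomial intervals as error bars. The PIEZO2-high share runs between 11.8% in ending 3 and 35.0% in ending 6.

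PIEZO2 itself chose the nuclei, so its level is given as a description. PIEZO2-high nuclei held a median of 6 PIEZO2 UMIs and a range of 3 to 123. Summed over all 133 nuclei this came to 969 counts per 1000000 UMIs (CPM), with 738, 859, 1315 and 977 CPM in endings 1, 3, 5 and 6. The level in the GFRA2 class was 1312 CPM. Few nuclei carried much of it, since 5 nuclei held 411 of the 1625 PIEZO2 UMIs. SCN10A stood at 624 CPM in PIEZO2-high and 688 CPM in PIEZO2-zero nuclei. It rested on exactly 1 UMI in 30 of the 133 PIEZO2-high nuclei and in 70 of the 373 PIEZO2-zero nuclei, and on at least 3 UMIs in 91 PIEZO2-high and 228 PIEZO2-zero nuclei. A single SCN10A UMI can come from free RNA, so the genes named here were also computed for nuclei with at least 3.

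Near the threshold, 20 nuclei had exactly 3 PIEZO2 UMIs and 56 had exactly 2. TAC1, the precursor of the pain peptide substance P, stood at 2117 CPM in the nuclei with 3 and 1763 CPM in those with 2. KIT, the receptor for stem cell factor, stood at 206 CPM with 3 UMIs and 114 CPM with 2, and TAFA1, a secreted chemokine-like protein, at 399 CPM with 3 UMIs and 206 CPM with 2. NTRK2, the receptor for brain-derived neurotrophic factor, stood at 98.8 CPM with 3 UMIs and 104 CPM with 2. The 43 nuclei with at least 10 PIEZO2 UMIs differed more, with TAC1 at 272 CPM, NTRK2 at 783 CPM, KIT at 218 CPM and the adhesion gene KIRREL3 at 1412 CPM. KIRREL3 was at 112 CPM in the nuclei with exactly 3 UMIs. The TAC1 level of nuclei just inside the threshold was above the 589 CPM of all PIEZO2-high nuclei together, but rested largely on 1 nucleus. A single nucleus held 36.2% of the 988 TAC1 UMIs of PIEZO2-high nuclei. Nuclei with exactly 3 PIEZO2 UMIs held 493 of the 988 and those with at least 10 held 197, which places that nucleus among those with exactly 3.

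The label of nociceptor was checked with genes that the rule did not use. SCN9A, a sodium channel of pain neurons, stood at 746 CPM in PIEZO2-high and 835 CPM in PIEZO2-zero nuclei. SCN11A, another nociceptor sodium channel, stood at 262 CPM in PIEZO2-high and 459 CPM in PIEZO2-zero nuclei. In 107 nuclei with at least 3 PIEZO2 UMIs but no SCN10A, which carried large-fibre markers most strongly, SCN9A was at 291 CPM and SCN11A at 38.4 CPM. Both pain-neuron channels were therefore higher in PIEZO2-high nuclei than in these SCN10A-zero nuclei and below the PIEZO2-zero nuclei. Other markers of non-peptidergic and C-fibre touch neurons were uneven. CACNA1I, a T-type calcium channel, had 1 UMI in PIEZO2-high nuclei, at 0.596 CPM against 39.0 CPM in the GFRA2 class, and the cadherin CDH9 was at 16.1 CPM in PIEZO2-high nuclei and 107 CPM in the GFRA2 class. TAFA4, a secreted chemokine-like protein, was at 80.5 CPM in PIEZO2-high nuclei, 49.8 CPM in PIEZO2-zero nuclei and 105 CPM in the GFRA2 class, and PLXNC1, a semaphorin receptor, was at 102 CPM in PIEZO2-high nuclei, 92.6 CPM in PIEZO2-zero nuclei and 246 CPM in the GFRA2 class. LPAR5 had 0 UMIs in PIEZO2-high nuclei, which allows up to 3 UMIs, but was at 0.281 CPM in the GFRA2 class as well. The ATP-gated channel P2RX3, known from mouse non-peptidergic neurons, was at 25.6 CPM in PIEZO2-high nuclei (43 UMIs), 2.03 CPM in PIEZO2-zero nuclei (6 UMIs) and 14.9 CPM in the GFRA2 class. It had fewer than 50 UMIs over both sides and was not among the genes compared.

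Markers of A-fibre nociceptors, the myelinated pain neurons, were carried in part. The 7 measured genes of that list summed to 2043 CPM in PIEZO2-high nuclei, 1188 CPM in PIEZO2-zero nuclei and 2557 CPM in the SCN10A-zero nuclei. Of these, KIT, TAFA1 and CPNE6, a calcium-binding copine, were at least 2-fold higher in PIEZO2-high than in PIEZO2-zero nuclei. NEFH, the heavy neurofilament of large axons, was 1.27-fold higher, and PALM stood at 155 CPM in PIEZO2-high against 161 CPM in PIEZO2-zero nuclei. BMPR1B, a receptor for bone morphogenetic proteins, pointed the other way, with 76.3 CPM in PIEZO2-high and 147 CPM in PIEZO2-zero nuclei. CALCA, the precursor of the peptide CGRP, was not analysed here.

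Markers of large-fibre touch neurons were also higher in part, but stayed below their level in the SCN10A-zero nuclei. The A-fibre touch list summed to 738 CPM in PIEZO2-high, 195 CPM in PIEZO2-zero and 2074 CPM in SCN10A-zero nuclei. NTRK2 and NTRK3 gave most of this in PIEZO2-high nuclei, at 417 and 190 CPM. Within ending 3 the list was at 285 CPM in PIEZO2-high and 173 CPM in PIEZO2-zero nuclei. Of its other compared genes, MAF was at 29.2 against 21.4 CPM and ESRRG at 76.3 against 40.7 CPM. Neither had the same direction in every ending. The list of large-fibre channels and factors summed to 617 CPM in PIEZO2-high, 156 CPM in PIEZO2-zero and 1577 CPM in SCN10A-zero nuclei. The proprioceptor list summed to 290 CPM in PIEZO2-high, 317 CPM in PIEZO2-zero and 1007 CPM in SCN10A-zero nuclei. PVALB, the calcium buffer of proprioceptors, was at 19.1 CPM in PIEZO2-high and 24.1 CPM in PIEZO2-zero nuclei, against 119.6 CPM in SCN10A-zero nuclei. The vesicular glutamate transporter SLC17A7, found mostly in large-fibre neurons, was at 18.5 CPM in PIEZO2-high, 3.05 CPM in PIEZO2-zero and 59.8 CPM in SCN10A-zero nuclei. Of the 133 PIEZO2-high nuclei 36, and of the 373 PIEZO2-zero nuclei 255, were free of every UMI of PVALB, NTRK3, KCNA1, SLC17A7, SHOX2 and RUNX3. Nuclei with any such UMI are called nuclei carrying large-fibre transcripts, a name for detection and not for a cell type. A deeper nucleus shows such a UMI more easily. Median totals were 8992 UMIs in PIEZO2-high and 6406 UMIs in PIEZO2-zero nuclei, and the part of depth was not tested. Doublets were not removed, and their part in these levels was not tested.

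Markers of peptidergic C-fibre neurons and of itch neurons were lower. The peptidergic list summed to 903 CPM in PIEZO2-high nuclei, 4218 CPM in PIEZO2-zero nuclei and 349 CPM in SCN10A-zero nuclei. The list named after the itch genes SST and OSMR summed to 698 CPM in PIEZO2-high and 2486 CPM in PIEZO2-zero nuclei. It summed to 1003 CPM in the GFRA2 class and 509 CPM in SCN10A-zero nuclei. All 7 of its genes with enough UMIs were at least 2-fold lower in PIEZO2-high than in PIEZO2-zero nuclei, beside 2.50% of all compared genes. Of these 7 genes, 6 had the same direction in every ending with a value, beside 1.93% of all compared genes that were lower in this way. The exception was NMB, a bombesin-like peptide, at 249 and 32.5 CPM in PIEZO2-high nuclei of endings 3 and 5, against 206 and 26.2 CPM in PIEZO2-zero nuclei. Markers of cells other than neurons were close on both sides. Satellite glia markers summed to 578.5 CPM in PIEZO2-high and 676 CPM in PIEZO2-zero nuclei, and Schwann cell markers to 1398 CPM in PIEZO2-high and 1580 CPM in PIEZO2-zero nuclei. Fibroblast, endothelial and immune markers summed to 177, 82.3 and 47.7 CPM in PIEZO2-high nuclei, against 169, 84.4 and 43.1 CPM in PIEZO2-zero nuclei.

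**Figure D2:**
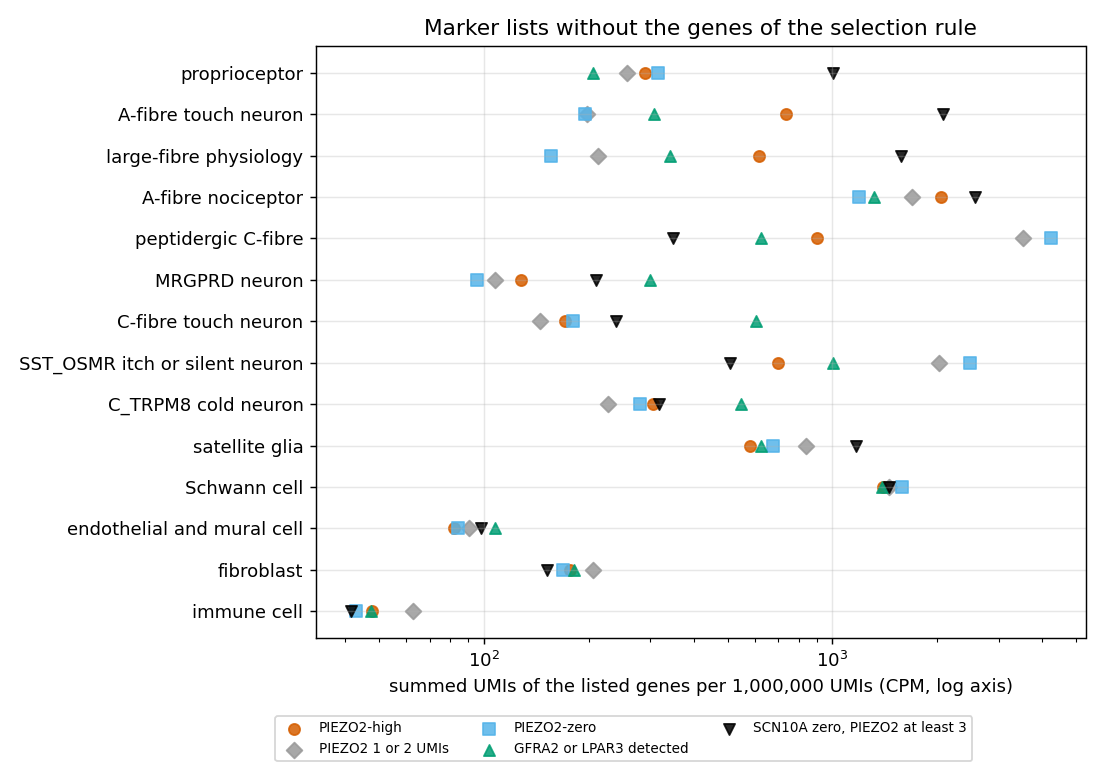
Summed level of 14 marker lists (rows) in CPM on a log axis, without the 4 genes of the selection rule, in PIEZO2-high nuclei, nuclei with 1 or 2 PIEZO2 UMIs, PIEZO2-zero nuclei, the GFRA2 class and SCN10A-zero nuclei with at least 3 PIEZO2 UMIs. PIEZO2-high nuclei lie above PIEZO2-zero nuclei for the A-fibre touch (738 against 195 CPM), A-fibre nociceptor and large-fibre physiology lists. They lie below them for peptidergic and itch lists (903 against 4218 CPM for the peptidergic list) and slightly below them for the proprioceptor list (290 against 317 CPM).

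Over all genes with at least 50 UMIs on both sides together, 9321 were compared. In PIEZO2-high against PIEZO2-zero nuclei, 601 genes (6.45%) were at least 2-fold higher and 233 (2.50%) were at least 2-fold lower. With the further demand that every barcode ending with a value point the same way, from at least 2 endings, 448 genes (4.81%) were higher and 180 (1.93%) were lower. All 9321 genes together had a median log2 ratio of 0.09. When the mitochondrial genome was left out of the totals this median was -0.05 and the counts were 446 higher and 337 lower. As means of ratios within endings 383 genes were higher and 272 lower. Without barcode ending 3 the counts were 381 higher and 297 lower, and without the nuclei carrying large-fibre transcripts 281 higher and 308 lower. More genes were higher than lower in the pooled table, but that order did not hold without the nuclei carrying large-fibre transcripts.

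**Figure D3:**
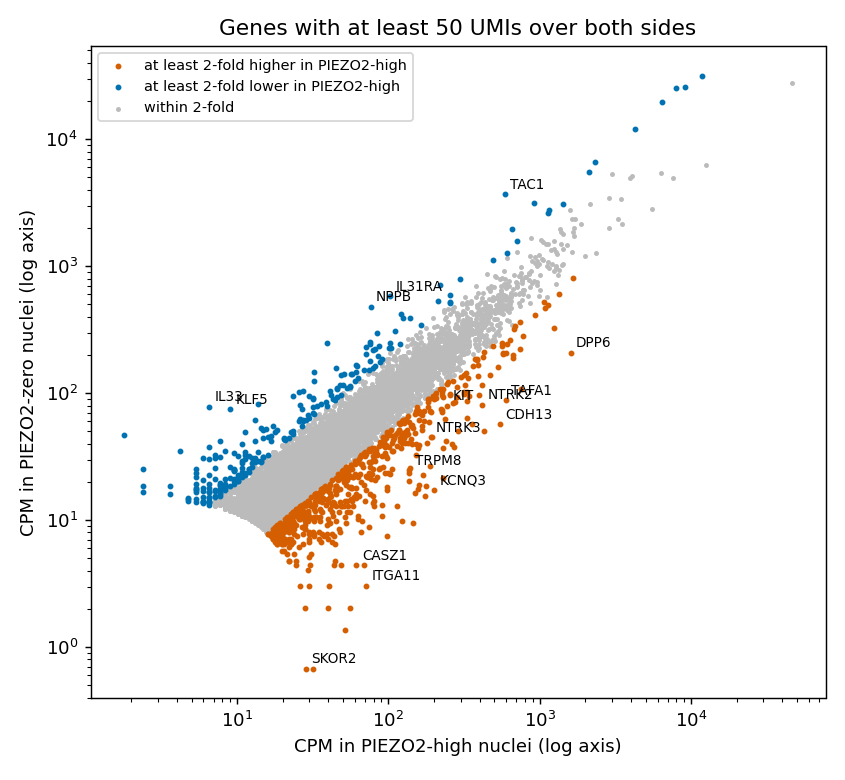
Level of each compared gene in PIEZO2-high nuclei (horizontal axis, CPM, log scale) and in PIEZO2-zero nuclei (vertical axis, CPM, log scale), with values under 0.3 CPM drawn at 0.3 CPM. Colours mark the 601 genes at least 2-fold higher and the 233 at least 2-fold lower in PIEZO2-high nuclei, with CDH13, DPP6 and TAFA1 among the higher and TAC1, NPPB and IL31RA among the lower.

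The leading higher genes were a mixed group of membrane, signalling and nuclear proteins. CDH13, a cadherin anchored to the outer membrane by a lipid, was at 271, 764, 476 and 648 CPM in PIEZO2-high nuclei of endings 1, 3, 5 and 6, against 58.8, 50.8, 85.03 and 53.9 CPM in PIEZO2-zero nuclei. The lowest ending of PIEZO2-high nuclei was thus above the highest ending of PIEZO2-zero nuclei. Pooled, CDH13 stood at 546 CPM in PIEZO2-high and 57.0 CPM in PIEZO2-zero nuclei, a ratio of 9.58 (95% counting interval 8.12 to 11.4). ITGA11, a collagen-binding integrin subunit, was at 71.6 CPM in PIEZO2-high and 3.05 CPM in PIEZO2-zero nuclei (ratio 23.5, interval 12.0 to 52.5), and was found in 48 of 133 PIEZO2-high nuclei but 7 of 373 PIEZO2-zero nuclei. SLC29A4, a transporter of monoamines such as serotonin, rested on 53 UMIs in PIEZO2-high and 2 UMIs in PIEZO2-zero nuclei (ratio 46.6, interval 12.3 to 395). The log2 ratio of SLC29A4 was 5.54 pooled but 3.41 as the mean within endings.

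Other leading higher genes had fewer carriers or uneven ones. XDH, the xanthine dehydrogenase of purine breakdown, was at 40.0 CPM in PIEZO2-high and 2.03 CPM in PIEZO2-zero nuclei, a ratio of 19.6. Within endings 5 and 6 XDH was at 41.4 and 51.5 CPM in PIEZO2-high nuclei, against 6.54 and 7.19 CPM in PIEZO2-zero nuclei, log2 ratios of 2.39 and 2.69 that lay below the pooled 4.30. CARTPT, the precursor of CART peptides, was at 69.2 CPM in PIEZO2-high and 4.41 CPM in PIEZO2-zero nuclei, but came from 24 PIEZO2-high nuclei and held 4 UMIs each in endings 5 and 6, against 85 in ending 1. SKOR2, a transcriptional corepressor, had 48 UMIs in 11 PIEZO2-high nuclei and 2 UMIs in PIEZO2-zero nuclei. A single nucleus held 43.8% of the SKOR2 UMIs, and without the 5 nuclei richest in PIEZO2 its level in PIEZO2-high nuclei was 5.27 CPM, against 28.6 CPM with them. Without nuclei carrying large-fibre transcripts SKOR2 had 0 UMIs in PIEZO2-high and 2 UMIs in PIEZO2-zero nuclei. HS3ST4, an enzyme that adds sulfate to heparan chains, was at 177 CPM in PIEZO2-high and 18.6 CPM in PIEZO2-zero nuclei, and at 30.4 CPM against 15.4 CPM once nuclei with large-fibre transcripts were left out.

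Further leaders act in signalling and excitability. CHRM2, the muscarinic receptor that couples to inhibitory G proteins, was at 40.6 CPM in PIEZO2-high and 3.05 CPM in PIEZO2-zero nuclei, a ratio of 13.3. ADCY8, a calcium-stimulated adenylyl cyclase, was at 97.8 CPM in PIEZO2-high and 7.46 CPM in PIEZO2-zero nuclei, a ratio of 13.1. KCNQ3, a subunit of the M-current that restrains repeated firing, was at 140.2, 149, 272 and 222 CPM in PIEZO2-high nuclei of endings 1, 3, 5 and 6, against 9.15, 16.1, 39.2 and 14.4 CPM in PIEZO2-zero nuclei. KCNQ3 was higher in every ending, as its choice as a leading gene asked, and the pooled ratio was 11.7 (interval 8.67 to 16). In SCN10A-zero nuclei KCNQ3 was at 242 CPM, above the 202 CPM of all PIEZO2-high nuclei. SORCS3, a sorting receptor, had a ratio of 11.2, TMEM163, a zinc transporter, 10.8, and EXOC1L 9.88. The transcription factors CASZ1 and ONECUT2 were at 61.4 and 48.9 CPM in PIEZO2-high nuclei, against 4.41 CPM each in PIEZO2-zero nuclei.

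The leading lower genes included peptides, itch receptors and a nuclear cytokine. TAC1 was at 2087, 267, 278 and 215 CPM in PIEZO2-high nuclei of endings 1, 3, 5 and 6, against 6869, 3528, 821 and 509 CPM in PIEZO2-zero nuclei. The endings differed strongly, but within each of them TAC1 was lower in PIEZO2-high nuclei, as the choice of the leading genes asked. Pooled, it stood at 589 CPM in PIEZO2-high and 3705 CPM in PIEZO2-zero nuclei (6.29-fold lower, interval 5.89 to 6.72), and 1 nucleus held 36.2% of the TAC1 UMIs of the PIEZO2-high side. NPPB, a natriuretic peptide that carries itch in mouse, was at 76.3 CPM in PIEZO2-high and 479 CPM in PIEZO2-zero nuclei, with 17 UMIs on either side in ending 6. IL31RA, a receptor for the itch cytokine interleukin-31, was at 37.4, 18.1, 204 and 116 CPM in PIEZO2-high nuclei of the 4 endings, against 625, 564, 510.2 and 638 CPM in PIEZO2-zero nuclei, so the sides did not overlap.

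IL33, an alarm cytokine kept in nuclei, was the most unequal of the lower genes, with 11 UMIs (6.56 CPM) in PIEZO2-high and 231 UMIs (78.3 CPM) in PIEZO2-zero nuclei, 11.9-fold lower (interval 6.55 to 24.2). The transcription factors KLF5 and DACH2 stood at 8.95 and 39.4 CPM in PIEZO2-high nuclei, against 74.9 and 248 CPM in PIEZO2-zero nuclei. SLC6A20, a transporter of proline and related amino acids, was 8.45-fold lower, RGS4, a brake on G protein signals, 6.03-fold, HPCAL4, a neuronal calcium sensor, 5.74-fold, and CYSLTR2, a leukotriene receptor of itch neurons, 5.42-fold lower. The calcium-binding protein S100A4, the myosin phosphatase inhibitor PPP1R14A, FAM89A, the Wnt receptor FZD5 and CHODL, a lectin-like membrane protein, were between 4.55-fold and 5.21-fold lower in PIEZO2-high nuclei.

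**Figure D4:**
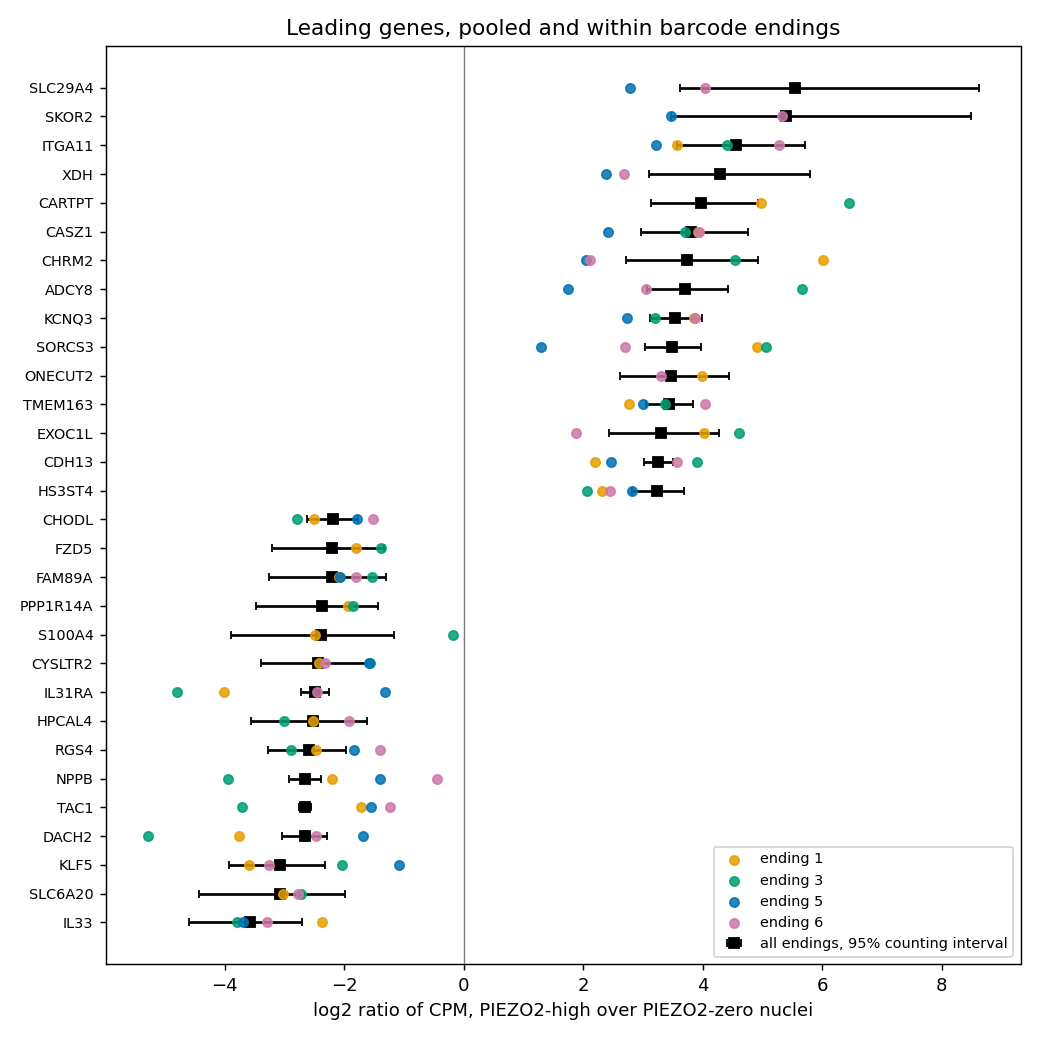
Log2 ratio of CPM in PIEZO2-high over PIEZO2-zero nuclei (horizontal axis) for the 15 leading higher and 15 leading lower genes (rows), pooled with 95% counting intervals (black) and within barcode endings 1, 3, 5 and 6 (coloured points, where an ending had at least 10 UMIs). CDH13 has a pooled ratio of 9.58 and TAC1 is 6.29-fold lower, and every coloured point lies on the same side of 0 as its pooled value, as the choice of these genes asked.

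The leading genes were also read in the other nuclei. These genes were chosen as the most unequal between PIEZO2-high and PIEZO2-zero nuclei, so a level between those sides was likely in advance for any other group. The counts are therefore a description, and the same count over all genes is not given. Of the 15 leading higher genes, 14 had a level in nuclei with 1 or 2 PIEZO2 UMIs between those of PIEZO2-high and PIEZO2-zero nuclei, and 0 were above the PIEZO2-high level. In the GFRA2 class 13 lay between and 2 were above the PIEZO2-high level, one of them CASZ1 at 80.9 CPM. In the SCN10A-zero nuclei 7 were above the PIEZO2-high level, among them SKOR2 at 96.1 CPM, HS3ST4 at 323 CPM and TMEM163 at 397 CPM. CDH13, by contrast, was at 67.3 CPM there, SORCS3 at 18.1 CPM and ITGA11 at 14.9 CPM, against 546, 175 and 71.6 CPM in PIEZO2-high nuclei. Of the 15 leading lower genes, 14 lay between the sides in nuclei with 1 or 2 PIEZO2 UMIs and 12 did so in the GFRA2 class. In the SCN10A-zero nuclei 5 lay between, and the others were not above the PIEZO2-high level. Among those others TAC1, NPPB and IL31RA were at 256, 28.8 and 10.7 CPM there, against 589, 76.3 and 103 CPM in PIEZO2-high nuclei. TAC1 was at 479 CPM in the GFRA2 class. Low levels of these genes were thus not particular to PIEZO2-high nuclei.

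Among 31 other mechanically gated channels and partners in the table, 19 had enough UMIs, and 3 were at least 2-fold higher and 1 lower in PIEZO2-high nuclei. Counts for this and the following lists stand beside the 6.45% of all genes that were higher and the 2.50% that were lower. The list's median log2 ratio was -0.05, beside 0.09 for all genes. TENM4, a teneurin adhesion protein, was at 66.8 CPM in PIEZO2-high and 9.83 CPM in PIEZO2-zero nuclei, with 0 UMIs on either side in ending 3 and log2 ratios of 1.36 and 1.63 within endings 5 and 6, against 2.76 pooled. KCNK10, a stretch-sensitive background potassium channel, was at 77.9, 136, 97.5 and 157 CPM in PIEZO2-high nuclei of the 4 endings, against 26.2, 47.6, 36.0 and 53.9 CPM in PIEZO2-zero nuclei. In SCN10A-zero nuclei KCNK10 was at 146 CPM, above the 129 CPM of all PIEZO2-high nuclei. TMEM150C, reported to modulate mechanical currents, was 2.15-fold higher. TRPC6, a receptor-operated cation channel, was at 15.5 CPM in PIEZO2-high and 52.2 CPM in PIEZO2-zero nuclei. PIEZO1 had 3 UMIs in PIEZO2-high and 7 in PIEZO2-zero nuclei, and TMEM63B, an osmotically gated channel, stood at 293 CPM in PIEZO2-high and 194 CPM in PIEZO2-zero nuclei, within 2-fold.

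Among other transduction channels, 3 of 15 were higher and 0 lower, with a median log2 ratio of 0.22. TRPM8, the cold and menthol channel, was at 87.2, 122, 118 and 178 CPM in PIEZO2-high nuclei of endings 1, 3, 5 and 6, against 20.9, 8.06, 81.8 and 30.5 CPM in PIEZO2-zero nuclei. The sides did not overlap, although ending 5 came close, and the pooled ratio was 5.54 (interval 4.24 to 7.32). TRPC5, which also responds to cold, was at 90.1 CPM in PIEZO2-high and 13.2 CPM in PIEZO2-zero nuclei, and ANO1, a calcium-activated chloride channel, was 2.27-fold higher without the same direction in every ending. TRPV1, the heat and capsaicin channel, stood at 18.5 CPM in PIEZO2-high and 28.8 CPM in PIEZO2-zero nuclei, and TRPA1, the irritant channel, at 81.1 CPM in PIEZO2-high and 112 CPM in PIEZO2-zero nuclei.

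To compare detection at one depth, every nucleus was thinned to 3000 UMIs. TRPM8 was then found in 31.6% of PIEZO2-high nuclei (42 of 133), 5.90% of PIEZO2-zero nuclei and 4.67% of the SCN10A-zero nuclei, which carry large-fibre markers. Before thinning, the shares with TRPM8 were 51.9% in PIEZO2-high and 9.92% in PIEZO2-zero nuclei. The TRPM8 share of PIEZO2-zero nuclei was thus near that of the SCN10A-zero nuclei, which rested on 5 of 107 nuclei. A single nucleus held 19.2% of the 73 TRPM8 UMIs of PIEZO2-zero nuclei, and whether the rest were background was not tested. Thinned nuclei of the GFRA2 class held TRPM8 in 14.0% of cases, between the shares of PIEZO2-high and PIEZO2-zero nuclei. By summed UMIs the order was different, with 161 CPM of TRPM8 in the GFRA2 class and 137 CPM in PIEZO2-high nuclei. TRPM8 was therefore not particular to PIEZO2-high nuclei. The other markers of TRPM8 cold neurons were mixed, with FOXP2 at 54.3 CPM in PIEZO2-high and 64.8 CPM in PIEZO2-zero nuclei and CDH8 at 100.2 CPM in PIEZO2-high and 185 CPM in PIEZO2-zero nuclei. RXFP1, the relaxin receptor, was at 13.1 CPM in PIEZO2-high and 5.42 CPM in PIEZO2-zero nuclei (ratio 2.42, interval 1.21 to 4.93), on 22 and 16 UMIs and without the same direction in every ending, and PENK had 0 UMIs on either side.

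Of 40 potassium and HCN channel genes 10 were higher and 1 was lower, with a median log2 ratio of 0.51, so that most stayed within 2-fold. DPP6, an auxiliary subunit of A-type potassium channels, was at 835, 1552, 1383 and 2111 CPM in PIEZO2-high nuclei of the 4 endings, against 118, 247, 389 and 165 CPM in PIEZO2-zero nuclei, with no overlap. Its pooled ratio was 7.67 (interval 7.03 to 8.39), and it was found in 131 of the 133 PIEZO2-high nuclei. DPP6 was higher still in the GFRA2 class (1872 CPM) and in SCN10A-zero nuclei (1818 CPM), against 1599.5 CPM in PIEZO2-high nuclei. KCNC1, a fast channel of the Kv3 kind that large-fibre neurons carry, had a ratio of 4.40, KCNV1, a silent subunit, 3.52, and KCNIP1, a partner of A-type channels, 3.36. KCNQ5, a further M-current subunit, was at 1661 CPM in PIEZO2-high and 809 CPM in PIEZO2-zero nuclei, against 82.2 CPM in SCN10A-zero nuclei. KCNG2, another silent subunit, was the lower member, at 31.6 CPM in PIEZO2-high and 77.6 CPM in PIEZO2-zero nuclei.

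Of 10 sodium channel genes, 2 were higher and 1 was lower, beside 6.45% and 2.50% of all genes. SCN1A, a sodium channel of myelinated afferents, was at 87.2, 104, 97.5 and 156 CPM in PIEZO2-high nuclei of the 4 endings, against 48.4, 28.2, 39.2 and 39.5 CPM in PIEZO2-zero nuclei. SCN8A, the main channel of nodes of Ranvier, was at 268 CPM in PIEZO2-high and 83.4 CPM in PIEZO2-zero nuclei (ratio 3.21, interval 2.74 to 3.77). SCN1A and SCN8A were at 256 and 336 CPM in SCN10A-zero nuclei, above the 120 and 268 CPM of all PIEZO2-high nuclei. The lower member was FGF14, a modulator of sodium channel gating, at 612 CPM in PIEZO2-high and 1270.3 CPM in PIEZO2-zero nuclei. Among 13 calcium channel genes, CACNA1A, the P/Q-type channel of nerve endings, was 2.98-fold higher, CACNG2, an auxiliary subunit of AMPA receptors, 8.60-fold, and the T-type CACNA1H 3.00-fold higher, the last without the same direction in every ending. As means within endings the log2 ratios of CACNG2 and CACNA1A were 1.78 and 0.97, against 3.1 and 1.58 pooled. CACNA2D3, an auxiliary subunit, was 2.31-fold lower.

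Growth factor receptors gave the highest median log2 ratio of the 17 functional lists, 0.65, with 5 of 16 genes higher and 1 lower. KIT was at 178, 357, 159.5 and 265 CPM in PIEZO2-high nuclei of endings 1, 3, 5 and 6, against 68.0, 70.1, 88.3 and 108 CPM in PIEZO2-zero nuclei. The sides did not overlap, and the pooled ratio was 3.07. NTRK3, the receptor for neurotrophin-3, was at 77.9, 145, 82.7 and 298 CPM in PIEZO2-high nuclei, against 48.4, 41.9, 39.2 and 46.7 CPM in PIEZO2-zero nuclei. NTRK2 was at 336, 81.4, 721 and 386 CPM in PIEZO2-high nuclei, against 69.3, 66.1, 81.8 and 109.6 CPM in PIEZO2-zero nuclei, and thus close to equal in ending 3.

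NTRK2 was near equal without the nuclei carrying large-fibre transcripts and KIT was not. Without nuclei carrying large-fibre transcripts, NTRK2 was at 74.2 CPM in PIEZO2-high and 59.0 CPM in PIEZO2-zero nuclei. KIT and TAFA1 were then at 226 and 452 CPM in PIEZO2-high nuclei, against 79.2 and 78.7 CPM in PIEZO2-zero nuclei. With at least 3 SCN10A UMIs asked of each nucleus, NTRK2 was at 322 CPM in PIEZO2-high and 68.8 CPM in PIEZO2-zero nuclei, and KIT at 287 CPM in PIEZO2-high and 73.0 CPM in PIEZO2-zero nuclei. ERBB4, a neuregulin receptor, and GHR, the growth hormone receptor, were 2.76-fold and 2.09-fold higher. RET, the signalling receptor for the GDNF family, was at 255 CPM in PIEZO2-high and 520.4 CPM in PIEZO2-zero nuclei, without the same direction in every ending.

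After thinning, KIT was found in 43.6% of PIEZO2-high nuclei (exact interval 35.0 to 52.5%), 19.8% of PIEZO2-zero nuclei and 13.1% of SCN10A-zero nuclei. TAFA1 was found in 64.7% of PIEZO2-high, 19.6% of PIEZO2-zero and 43.0% of SCN10A-zero nuclei. NTRK2 was found in 30.8% of PIEZO2-high, 18.8% of PIEZO2-zero and 60.7% of SCN10A-zero nuclei. KIT was thus most frequent in PIEZO2-high nuclei and NTRK2 in SCN10A-zero nuclei.

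Of 17 neuropeptide and granule genes 2 were higher and 8 lower, with a median log2 ratio of -0.78, the lowest of the 17 functional lists after the mitochondrial genome. CARTPT and CHGA, a core protein of secretory granules, were the higher members, CHGA at 56.7 CPM in PIEZO2-high and 14.6 CPM in PIEZO2-zero nuclei. The lower members were TAC1, NPPB, SCG2, GAL, NMB, ADCYAP1, SST and PCSK1, and 7 of these 8, all but NMB, were lower in every ending with a value. SCG2, a granule protein, was at 75.7 CPM in PIEZO2-high and 251 CPM in PIEZO2-zero nuclei, and galanin (GAL) at 48.3 CPM in PIEZO2-high and 139.7 CPM in PIEZO2-zero nuclei. ADCYAP1, the precursor of the peptide PACAP, was at 78.7 CPM in PIEZO2-high and 217 CPM in PIEZO2-zero nuclei.

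Receptors followed no single direction. Of 11 inhibitory receptor genes 3 were higher and 0 lower, CHRM2, GRM4, a glutamate receptor, at a ratio of 3.86, and OPRD1, the delta opioid receptor, at a ratio of 3.06. OPRM1, the mu opioid receptor, was at 419 CPM in PIEZO2-high and 383 CPM in PIEZO2-zero nuclei, a ratio of 1.09 with an interval of 0.994 to 1.20. Of 23 pronociceptive and itch receptor genes 2 were higher and 6 lower. TACR1, the substance P receptor, was among the higher, with 41 UMIs in 16 PIEZO2-high nuclei. The lower were IL31RA, CYSLTR2, the angiotensin receptor AGTR1, the prostaglandin receptor PTGER2, the oncostatin receptor OSMR and the histamine receptor HRH1, the last at 57.9 CPM in PIEZO2-high and 142 CPM in PIEZO2-zero nuclei.

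Of 37 transcription factor genes 9 were higher and 4 lower, with a median log2 ratio of 0.31. Beside CASZ1 and ONECUT2, NFIX, a nuclear factor, was at 66.2 CPM in PIEZO2-high and 8.14 CPM in PIEZO2-zero nuclei, a ratio of 8.14. POU4F3, a POU-domain factor of sensory cells, had a ratio of 3.90, BCL11B 2.44 and DRGX, a homeobox factor of pain neurons, 2.11. RUNX1, which in mouse drives the non-peptidergic programme, was at 71.0 CPM in PIEZO2-high and 229.5 CPM in PIEZO2-zero nuclei, and 355 CPM in the GFRA2 class. TLX3 was 3.73-fold lower and ETV1, a factor of proprioceptors in mouse, 3.23-fold lower. Within these factors the higher and lower members stayed on their side in every ending with a value, except ETV1.

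Genes of fast transmission, adhesion and the cytoskeleton were mostly within 2-fold. Of 34 fast transmission genes 7 were higher and 2 lower, with a median log2 ratio of 0.58. GABRB2, a GABA receptor subunit, had a ratio of 6.90, GRIN2B, an NMDA receptor subunit, 4.61, and CPLX1, a complexin of transmitter release, 3.84. SLC17A8, the glutamate transporter of C-fibre touch neurons in mouse, was 2.96-fold lower. Of 65 adhesion and guidance genes 16 were higher and 6 lower, with EPHB1, an ephrin receptor, at a ratio of 6.77, CDH4 at 6.68 and CDH12 at 6.16 among the higher and LRRTM3 and NELL1 at 3.84-fold and 3.14-fold among the lower. Of 23 axon and cytoskeleton genes 2 were higher, among them MAP2, a dendritic microtubule protein, at a ratio of 3.22. Without nuclei carrying large-fibre transcripts MAP2 was at 142 CPM in PIEZO2-high and 97.3 CPM in PIEZO2-zero nuclei.

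Of 47 signalling genes 6 were higher and 6 lower, with a median log2 ratio of -0.03. PLCE1, a phospholipase activated by small G proteins, was at 280.3, 271, 269 and 296 CPM in PIEZO2-high nuclei of the 4 endings, against 87.6, 85.5, 124 and 101 CPM in PIEZO2-zero nuclei. The cyclic AMP phosphodiesterase PDE4D was at 922 CPM in PIEZO2-high and 3168 CPM in PIEZO2-zero nuclei, and RGS3 was 3.54-fold lower. Of 5 injury and activity genes, IL33 was lower and 0 were higher. None of 19 ribosomal protein genes was past 2-fold, with a median log2 ratio of -0.21. All 13 mitochondrial genes were at least 2-fold lower in PIEZO2-high nuclei when pooled, but 3 of them pointed the same way in every ending.

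PIEZO2-high nuclei were not uniform. After thinning, KIT was found in 58 of the 133 nuclei and TRPM8 in 42, and 31 nuclei held both. KIT and TAFA1 were found together in 43 nuclei, of 86 with TAFA1. KIT and NTRK2 were found together in 17 nuclei, of 41 with NTRK2. NTRK2 and NTRK3 shared 14 nuclei. Most TRPM8 nuclei, 31 of 42, thus also held KIT, beside 58 of all 133 PIEZO2-high nuclei. The share of NTRK2 nuclei with KIT, 17 of 41, was near that of all PIEZO2-high nuclei.

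Split by KIT, the 58 nuclei with it had a median of 8574 UMIs and the 75 without it 9765 UMIs. TRPM8 was at 236 CPM in nuclei with KIT and 64.3 CPM in those without. CDH13 was at 1017 CPM with KIT and 198 CPM without, and SORCS3 at 348 CPM with KIT and 46.7 CPM without. Several leading higher genes therefore lay mainly in the nuclei with KIT. SLC29A4, XDH, CARTPT, CHGA and EPHB1 were at 59.0, 75.8, 114, 95.5 and 226 CPM with KIT, against 11.4, 13.5, 36.3, 28.0 and 72.6 CPM without. Other higher genes lay mainly in the nuclei without KIT. NTRK2, HS3ST4 and the AMPA receptor subunit GRIA4 were at 185, 43.5 and 63.2 CPM with KIT, against 588, 275 and 197 CPM without, and SKOR2 had 1 UMI with KIT and 47 UMIs without. A single nucleus held 17.6% of the NTRK2 UMIs of PIEZO2-high nuclei, and a single nucleus 20.6% of those of HS3ST4. TAC1 was at 246 CPM with KIT (175 UMIs) and 843 CPM without (813 UMIs), but the nucleus with 36.2% of its UMIs was among those without KIT. PIEZO2 itself was at 744 CPM with KIT and 1135 CPM without, and SCN10A at 753 CPM with KIT and 529 CPM without.

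**Figure D5:**
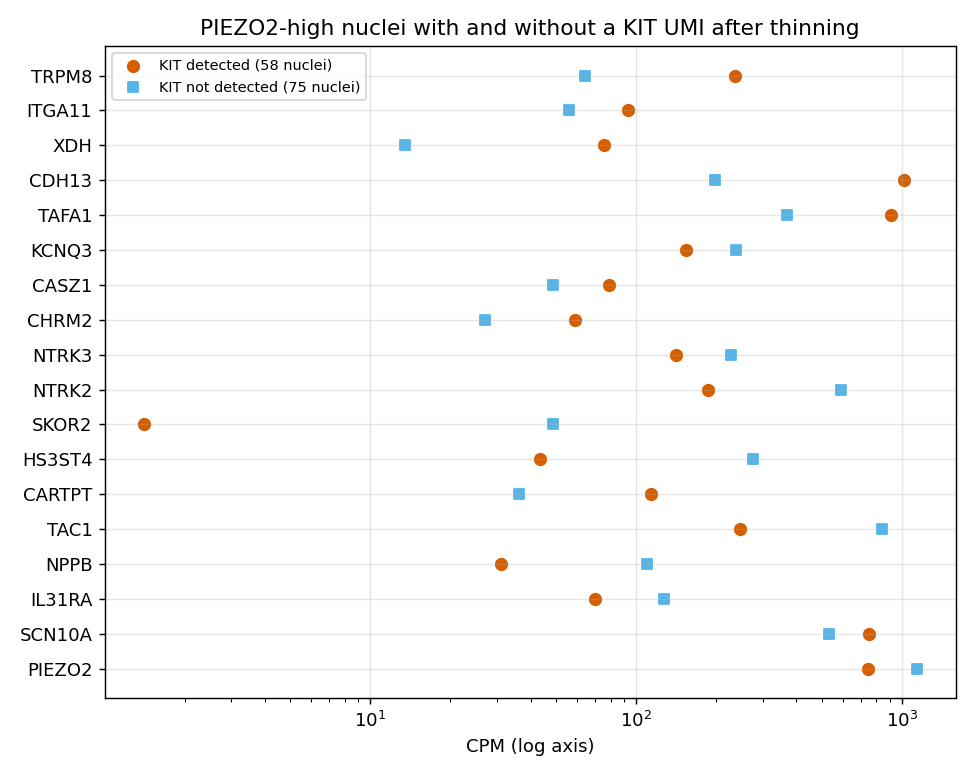
Level of selected genes (rows) in CPM on a log axis in the PIEZO2-high nuclei with a KIT UMI after thinning (58 nuclei, circles) and without one (75 nuclei, squares). TRPM8, CDH13 and XDH are higher with KIT (236 against 64.3 CPM for TRPM8), and NTRK2, HS3ST4 and SKOR2 are higher without it (185 against 588 CPM for NTRK2).

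Split by NTRK2, the 41 nuclei with it had a median of 11228 UMIs and the 92 without it 8937 UMIs. HS3ST4, CACNA1H and KCNQ3 were at 422, 110.1 and 340.3 CPM in nuclei with NTRK2, against 39.9, 24.1 and 124 CPM in those without. CDH13 was at 300.3 CPM with NTRK2 and 682 CPM without, and CARTPT at 6.67 CPM with NTRK2 and 104 CPM without. TAC1, at 1054 CPM with NTRK2 and 330.5 CPM without, rested on few nuclei, since 1 nucleus held 36.2% of its UMIs. The NTRK2 side was the deeper one, and the part of depth in this split was not tested.

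Leaving out every nucleus with a TRPM8 UMI showed which leading genes lay in them. With 64 PIEZO2-high and 336 PIEZO2-zero nuclei left, SLC29A4 had 2 UMIs on each side. ITGA11 and CDH13 were at 16.1 and 177 CPM in PIEZO2-high nuclei, against 2.69 and 53.1 CPM in PIEZO2-zero nuclei. KCNQ3, NTRK2 and TAC1 were at 187, 579 and 552 CPM in PIEZO2-high nuclei, against 18.5, 76.9 and 3951 CPM in PIEZO2-zero nuclei. SLC29A4 was thus at 2.48 CPM in PIEZO2-high nuclei without TRPM8, beside 31.6 CPM in all of them, while KCNQ3 moved little. When nuclei with LPAR5, CACNA1I, SLC17A8, TAFA4, CDH9 or CASQ2 were left out instead, 55 PIEZO2-high and 225 PIEZO2-zero nuclei remained, with KIT, TAC1 and IL31RA at 401.5, 204 and 10.9 CPM in PIEZO2-high nuclei, against 79.7, 3907 and 465 CPM in PIEZO2-zero nuclei.

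Detection also varied between endings among the PIEZO2-high nuclei. After thinning, KIT was found in 48.3, 44.8, 28.1 and 48.8% of them in endings 1, 3, 5 and 6, TRPM8 in 17.2, 41.4, 28.1 and 39.0%, and TAC1 in 68.97, 27.6, 34.4 and 39.0%. NTRK2 was found in 31.0, 17.2, 40.6 and 29.3%. Ending 1 was therefore the one with the most TAC1 and the least TRPM8 detection, and ending 3 the one with the least NTRK2 and TAC1. Each ending held 29 to 41 PIEZO2-high nuclei.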

How the data were processed

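Nuclear RNA of dorsal root ganglia from 5 pigs was sequenced with the 10x Genomics 3' chemistry, per the labels' protocols. The authors deposited raw UMI counts in 1 table of 30477 genes by 2189 nuclei, without any scaling. Cell Ranger 6.0.1, Seurat and build Sscrofa11.1 stand in the submitters' processing notes with no stated role. Nuclei held 17277376 UMIs in all, a median of 4565 each. Rows with only an Ensembl identifier numbered 14012, of which 773 could be given a symbol. Positions came from RefSeq on the same build.

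CPM were computed from UMIs summed per side, with exact Poisson intervals. Ratios have exact conditional binomial intervals and shares Clopper-Pearson intervals, at 95%. For a side with no UMI, 3 counts stood in as the floor. Genes needed 50 UMIs over both sides. An ending gave a value with 10 nuclei on each side and 10 UMIs, after 0.5 counts were added to each. Thinning drew 3000 UMIs per nucleus (seed 1). No doublet was removed. Ratios were tested on simulated data. Leading genes were the 15 largest and 15 smallest ratios with a symbol, outside the mitochondrial genome, whose interval excluded 1 and whose direction was the same in every ending with a value. Each list gave at most 2 such genes each way, and the other list members and markers were added after their values were seen. Some genes that the rule or the lists named are not reported here. Nuclei, lists and rules were chosen with earlier results of these data known. Alternatives were other thresholds, depth matching, thinning, totals, and left-out endings or nuclei. Python 3.11.15, numpy 2.4.6, pandas 2.3.3 and scipy 1.17.1 were used.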

Additional observations from a re-analysis of the deposited data

How the results depend on the processing

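The count of genes at least 2-fold higher in PIEZO2-high nuclei, 601 as reported, was 383 as the mean of ratios within endings, 296 after thinning (of 5336 genes tested), 1118 and 219 with a minimum of 20 and 200 UMIs per gene, 372 without nuclei carrying other GFRA2-class transcripts and 281 without those carrying large-fibre transcripts. The count of lower genes, 233 as reported, was 403 and 102 with a minimum of 20 and 200 UMIs, 351 with at least 6 PIEZO2 UMIs and 387 with at least 500 CPM of PIEZO2. The share of PIEZO2-high nuclei, 20.6% as reported, was 12.2% with at least 6 PIEZO2 UMIs, 16.3% with at least 500 CPM, 15.2% without nuclei carrying other GFRA2-class transcripts, 9.6% without those carrying large-fibre transcripts and 12.4% without those carrying TRPM8, the last chosen after seeing the data. Leaving out 1 barcode ending at a time gave 381 to 628 higher genes, 188 to 297 lower genes and shares of 17.4 to 26%. The 381 and the 26% were without ending 3. Leaving out the 5 nuclei with the most PIEZO2, also chosen after seeing the data, gave 568 higher and 234 lower genes. Causes were not tested, apart from the smaller number of genes or nuclei that an alternative leaves. Of 1253 recomputed ratios of the 60 named genes, 1010 moved by less than their counting interval, 243 moved further and 0 changed direction. Too few UMIs for a ratio were left in 7 cases. Besides genes that an alternative itself removed, these cases were of SKOR2, SLC29A4 and CACNG2. SKOR2 had 0 UMIs in PIEZO2-high and 2 in PIEZO2-zero nuclei, without nuclei carrying large-fibre transcripts and likewise without those carrying other GFRA2-class transcripts. SLC29A4 had 2 UMIs on each side without TRPM8 nuclei. CACNG2 had 3 UMIs in PIEZO2-high and 6 in PIEZO2-zero nuclei without nuclei carrying large-fibre transcripts. The ratios of NTRK2, HS3ST4 and MAP2 were lowest without nuclei carrying large-fibre transcripts, at log2 values of 0.33, 0.98 and 0.54, against 2.36, 3.24 and 1.69 as reported. No paired analysis was possible because no nucleus or barcode ending is tied to a pig and the result comes from no test. Comparisons within barcode endings, which are not tied to pigs, gave the 383 higher and 272 lower genes as means of ratios, and 404 higher and 250 lower genes as Mantel-Haenszel ratios over ending and depth. The means within endings moved SLC29A4, XDH, CACNG2, TENM4 and HS3ST4 to log2 ratios of 3.41, 2.54, 1.78, 1.5 and 2.41, against 5.54, 4.30, 3.1, 2.76 and 3.24 as reported, CARTPT to 5.71 against 3.97, and S100A4 to -1.33 against -2.38. Genes with few UMIs, such as SLC29A4 and SKOR2 in PIEZO2-zero nuclei, are known only within wide counting intervals, and the spread between pigs is unknown.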
